A study of Bos taurus with 6 samples.

Results

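Brain-derived neurotrophic factor (BDNF), the neurotrophin NTF3, the neurotrophin receptors NTRK2, NTRK3, NGFR and SORT1, and the growth factor GDNF were followed in bovine preadipocytes transfected with a bta-miR-484 agomir. These 7 genes were chosen by symbol, and each had a row among the 23475 genes of the deposited expression list. RNA was sequenced 48 h after transfection from 3 libraries that received the bta-miR-484 agomir (agomir group) and from 3 libraries that received the negative control agomir (agomir NC group), in order to see which transcripts differ when more bta-miR-484 is present. An agomir is a chemically modified RNA duplex that supplies cells with additional copies of a miRNA, and its negative control lacks the sequence of that miRNA. All libraries came from cells of calf subcutaneous fat grown in high-glucose DMEM with fetal bovine serum, which the labels call adipocytes and for which the study's methods use both adipocyte and preadipocyte. Tissue was taken from 3 calves, but the sources used here do not say which calf each library came from, or whether differentiation medium was given before collection.

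Neurotrophins are secreted as precursors that proteases cut into mature growth factors. The mature forms act through TRK receptor tyrosine kinases and the RAS-MAPK and phospholipase C cascades, and they also bind NGFR, known as p75NTR. The precursors act through NGFR together with SORT1. In the brain BDNF and NTRK2 restrain food intake, and in adipose tissue neurotrophins are known for the upkeep of the sympathetic nerve fibres that supply it.

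Expression was given as FPKM, in which the fragments of a gene are divided by its transcript length and by the mapped total of the library, so levels of genes can be set side by side within a library. Between libraries, FPKM also depends on what the other genes take up, and the effect of another scaling is given where it moved a count. Per library, FPKM added up to between 365977 and 379361 over all genes, and between 16207 and 16360 genes per library were above 0. No read numbers were available in these values, so the sequencing depth is unknown and the counting error of the low genes described here cannot be given.

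The label of the cells was compared with marker genes. The 13 preadipocyte and stromal markers summed to between 23689 and 24873 FPKM per library, with the collagen gene COL3A1 the highest at a mean of 7623 FPKM, 10 of the 13 at a mean of at least 0.5 FPKM, and DLK1 listed at 0 in every library. The 10 mature adipocyte markers summed to between 12.8 and 14.4 FPKM per library, with LPL the highest at a mean of 3.73 FPKM. ADIPOQ, which encodes the adipocyte hormone adiponectin, was at 0.115 ± 0.0607 FPKM in the agomir group and 0.165 ± 0.0277 FPKM in the agomir NC group (SD, n = 3 each), and LEP was listed at 0 in 4 of the 6 libraries. By these markers the cells were stromal, with markers of lipid-laden adipocytes at low levels in both groups.

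Neurons and Schwann cells also make neurotrophins or their receptors, so their markers were read as well. The 10 Schwann cell and glia markers summed to between 3.19 and 5.01 FPKM per library, nearly all from S100B (mean 4.22 FPKM), and SOX10, CDH19, PMP2 and GFAP were listed at 0 in every library. The 11 neuron markers summed to between 3.48 and 4.52 FPKM, mostly from TUBB3 (mean 3.81 FPKM), and RBFOX3, STMN2, ELAVL4 and TH were listed at 0 in every library. These 8 markers of nerve and glia were thus at 0 in both groups. ERBB3 and SYP were above 0 in every library, at means of 0.0476 and 0.0536 FPKM. MBP was at 0.0462, 0 and 0.0443 FPKM in agomir libraries 1, 2 and 3 (mean 0.0302 FPKM). In agomir NC libraries 1, 2 and 3 it was at 0.0585, 0.0492 and 0.0686 FPKM (mean 0.0588 FPKM). These values near the floor did not overlap between the groups. The same held for 6.8% of all genes that averaged under 0.5 FPKM and were above 0 in at least 1 library. Exact permutation gave MBP a two-sided p of 0.1, the smallest it can give.

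The remaining marker lists were read by their summed levels, which did not separate the groups. The 8 endothelial markers summed to between 3.93 and 4.83 FPKM, led by VWF, and CLDN5 and EMCN were listed at 0 in every library. The 10 macrophage and leukocyte markers summed to between 7.51 and 8.90 FPKM, led by CD14, and C1QA, C1QB and TYROBP were listed at 0. The 10 pericyte and smooth muscle markers summed to between 219.0 and 248.6 FPKM, nearly all from ACTA2 (mean 206.6 FPKM), a gene that cultured stromal cells also use. The summed level of each of the 7 marker lists overlapped between the groups. Among single markers, DCN, FABP4 and PPARG had an unadjusted limma p under 0.05, with log2 fold changes of -0.12, -0.49 and 0.23, and their adjusted p in limma was 0.376, 0.363 and 0.407. Groups did not overlap in 1 of the 10 preadipocyte and stromal markers tested in limma (DCN). They did not overlap in 2 of the 7 mature adipocyte markers tested (PPARG and CIDEA), beside 17.2% of all genes tested. The part of these marker differences in the results that follow was not tested.

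The members were ordered by their mean FPKM over the 6 libraries. SORT1 was the highest at 4.70 FPKM, followed by GDNF at 3.63 FPKM, NTRK2 at 1.12 FPKM and BDNF at 0.816 FPKM. NGFR at 0.142 FPKM and NTRK3 at 0.0485 FPKM were close to the floor, and NTF3 was listed at 0 in every library. Among all 23475 genes SORT1 ranked 8196, GDNF 8921, NTRK2 11221, BDNF 11692, NGFR 14467 and NTRK3 16103, so no member was among the abundant transcripts of these cells. In this order, SORT1 and GDNF, GDNF and NTRK2, and BDNF and NGFR did not overlap over the 6 libraries. The ranges of NTRK2 and BDNF overlapped, although NTRK2 was above BDNF within each of the 6 libraries, and the ranges of NGFR and NTRK3 overlapped in the same way.

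**Figure D1:**
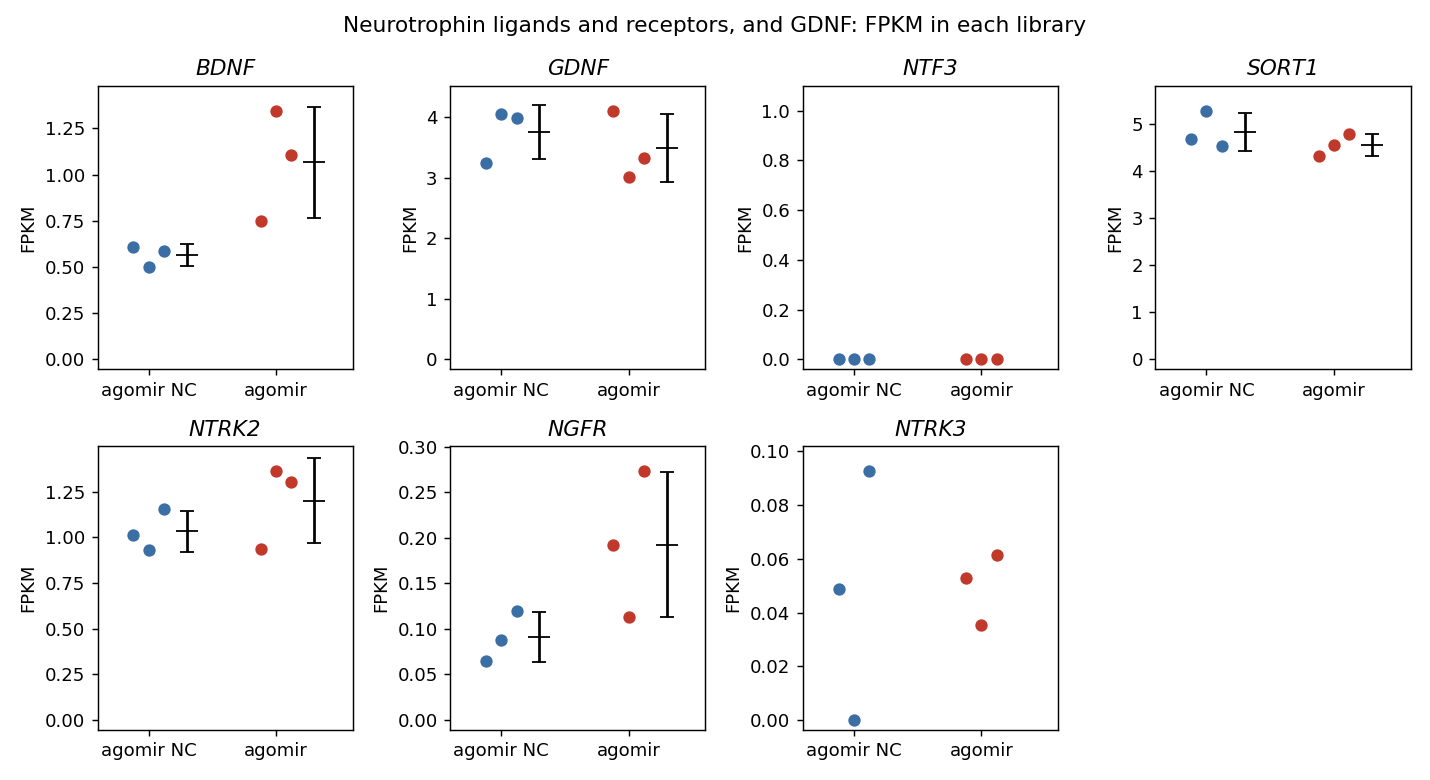
FPKM of the 7 members in each library, with points for single libraries and a horizontal line with error bars for the mean ± SD of 3 libraries (left out for NTF3 and NTRK3, which hold values of 0), agomir NC on the left and agomir on the right of each panel. The 3 BDNF values with the agomir (0.747 to 1.35 FPKM) lie above the 3 with the agomir NC (0.49995 to 0.609 FPKM), the groups overlap in GDNF, SORT1, NTRK2, NGFR and NTRK3, and NTF3 is at 0.

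BDNF, the ligand of NTRK2, was the only tested member whose groups did not overlap. Its expression was 0.747, 1.35 and 1.11 FPKM in agomir libraries 1, 2 and 3, and 0.609, 0.49995 and 0.588 FPKM in agomir NC libraries 1, 2 and 3. Every agomir library was above every agomir NC library, and the agomir libraries were spread more widely, with library 1 closest to the control range. The mean was 1.07 ± 0.301 FPKM in the agomir group and 0.566 ± 0.0579 FPKM in the agomir NC group (SD, n = 3 each), for a ratio of 1.88. On the log2(FPKM + 0.5) scale, where changes of low genes come out smaller than their ratios, the fold change was 0.54 (standard error 0.17, 95% interval 0.16 to 0.92). limma gave an unadjusted p of 0.0102 and an adjusted p of 0.333, so BDNF did not pass the threshold of 0.05 over the 12422 genes tested. By exact permutation of the libraries the two-sided p was 0.1, which is as low as 3 libraries against 3 can go. BDNF was among the genes that the study selected from these libraries for measurement by qPCR, so its direction here is not independent evidence. In bulk RNA, a larger share of cells that make BDNF cannot be told apart from more BDNF RNA in each cell.

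The primers of that qPCR assay are shown because they define the stretch of BDNF cDNA that was amplified, and each is 20 bases long. The qPCR values were not analysed here.
BDNF forward primer: catgggactctggagagcat
BDNF reverse primer: caaaggcacttcactgctga

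Of the 7 members, 4 had a mean of at least 0.5 FPKM and were tested in limma, and NTF3, NTRK3 and NGFR were below it. None of the 4 was under an adjusted p of 0.05, where 0.00805% of all genes tested were called, that is, 1 gene of 12422. That gene was TRAPPC4, which belongs to no list here and is named after its values were seen. At an unadjusted p under 0.05, 1 of the 4 members, BDNF, was higher with the agomir and 0 were lower, while 6.63% of all genes tested were higher and 4.31% were lower. When a fold of at least 1.5 on the log2(FPKM + 0.5) scale was also required, 0 members were called, and the background was 0.145% higher and 0.129% lower. With a pseudocount of 0.1 in place of 0.5, BDNF had a log2 fold change of 0.78 and was past that fold, as were 53 genes in all that were higher and 59 that were lower. Without agomir library 1 it was past it at 0.69, among 31 higher and 40 lower genes. The groups did not overlap in 1 of the 4 members tested, against 17.2% of all genes tested. NTRK3 and NGFR, the members under the filter with values above 0, both overlapped between the groups, where 6.8% of the 6045 such genes did not overlap. Without the filter on low values 18467 genes were tested, and 0% of them, members included, were under an adjusted p of 0.05 in limma, with 1604 genes under an unadjusted p of 0.05.

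NTF3, the main ligand of NTRK3, was listed at 0 FPKM in all 6 libraries. NTF4, which also binds NTRK2, was listed at 0.0840 FPKM in agomir library 1 and at 0 in the other libraries. Neither could therefore be compared between the groups as a fold.

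NTRK2, the receptor tyrosine kinase for BDNF, was at 0.937, 1.36 and 1.31 FPKM in agomir libraries 1, 2 and 3 and at 1.02, 0.932 and 1.15 FPKM in agomir NC libraries 1, 2 and 3. Agomir libraries 2 and 3 were above all controls, but agomir library 1 lay within the control range, so the groups overlapped. The mean was 1.202 ± 0.232 FPKM against 1.03 ± 0.112 FPKM in the controls (SD, n = 3 each), for a ratio of 1.16. limma estimated a log2 fold change of 0.14 (standard error 0.14, 95% interval -0.18 to 0.47, adjusted p = 0.764 in limma), and exact permutation gave a two-sided p of 0.3. Left without agomir library 1, the log2 fold change was 0.26 with an adjusted p of 0.589 in limma, and without agomir library 2 or agomir NC library 2 it was 0.073 or 0.095. In the RefSeq annotation of ARS-UCD2.0 a noncoding gene overlaps NTRK2, and another overlaps NTF3. Neither has a row in the deposited list, and the sources used here do not say whether strand was used, so fragments of such overlapping genes cannot be told apart.

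NTRK3, the TRK receptor for NTF3, was near the floor. It was listed at 0.0527, 0.0352 and 0.0616 FPKM in agomir libraries 1, 2 and 3 and at 0.0487, 0 and 0.0926 FPKM in agomir NC libraries 1, 2 and 3. The controls held both the lowest and the highest of these values, and exact permutation gave a two-sided p of 0.9.

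NGFR, the shared low-affinity receptor of the neurotrophins, was at 0.192, 0.113 and 0.273 FPKM in agomir libraries 1, 2 and 3 and at 0.0645, 0.0882 and 0.120 FPKM in agomir NC libraries 1, 2 and 3. Agomir libraries 1 and 3 were above all controls, and agomir library 2 was under agomir NC library 3. The mean was 0.193 ± 0.0801 FPKM against 0.0908 ± 0.0276 FPKM in the controls (SD, n = 3 each), for a ratio of 2.12 between values that were all under 0.3 FPKM. Exact permutation gave a two-sided p of 0.2. In the fit without a filter, the log2 fold change of NGFR was 0.22 (standard error 0.099, 95% interval -0.013 to 0.46, adjusted p = 0.590 in limma).

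SORT1, the sorting receptor that binds neurotrophin precursors together with NGFR, was at 4.32, 4.55 and 4.80 FPKM in agomir libraries 1, 2 and 3 and at 4.68, 5.29 and 4.55 FPKM in agomir NC libraries 1, 2 and 3. The values were interleaved, with the highest in agomir NC library 2 and the lowest in agomir library 1. The mean was 4.56 ± 0.241 FPKM in the agomir group and 4.84 ± 0.396 FPKM in the agomir NC group (SD, n = 3 each). limma estimated a log2 fold change of -0.077 (standard error 0.087, 95% interval -0.27 to 0.12, adjusted p = 0.793 in limma), with p = 0.5 in the exact two-sided permutation test. The estimate was -0.042 without agomir library 1, -0.017 without agomir NC library 2 and -0.12 without agomir NC library 3. SORT1 was more than an order of magnitude above its partner NGFR in FPKM in every library.

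A further 11 genes of neurotrophins, their receptors and receptor-bound adaptors were read beside the members, NTF4 among them. Only 4 of these 11 had a mean of at least 0.5 FPKM. At an unadjusted p under 0.05 in limma, 1 was higher and 1 lower, beside 6.63% and 4.31% of all genes tested. The other 2 did not pass, and 0 of the 4 passed after adjustment. Their median log2 fold change was -0.095, against 0.013 over all genes tested. MAGED1, a cytoplasmic partner of NGFR and the most abundant gene of the list, was at 81.9 ± 2.74 FPKM in the agomir group and 88.4 ± 1.92 FPKM in the agomir NC group (SD, n = 3 each), with no overlap and a log2 fold change of -0.11 (adjusted p = 0.400 in limma). BEX3, another NGFR partner, was at 6.03 ± 0.802 FPKM against 4.90 ± 0.447 FPKM in the controls (SD, n = 3 each), for a log2 fold change of 0.27 (adjusted p = 0.407 in limma) with overlapping groups. MAGED1 and BEX3 thus lay on opposite sides of 0. MAGED1 was the 1 gene of the 4 tested whose groups did not overlap, beside 17.2% of all genes tested. SORCS1 and SORCS3, which are related to SORT1, were listed at 0 in all 6 libraries. SORCS2, of the same family, was at 0.194, 0.108 and 0.0899 FPKM in agomir libraries 1, 2 and 3 and at 0.275, 0.194 and 0.174 FPKM in agomir NC libraries 1, 2 and 3, with overlapping groups and a two-sided p of 0.2 by exact permutation.

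GDNF, a growth factor that signals through the RET kinase and GFRA co-receptors and not through TRK receptors, was at 4.11, 3.02 and 3.33 FPKM in agomir libraries 1, 2 and 3 and at 3.25, 4.05 and 3.99 FPKM in agomir NC libraries 1, 2 and 3. Agomir library 1 was the highest of all 6 and agomir library 2 the lowest, so the control range lay inside that of the agomir libraries. The mean was 3.49 ± 0.562 FPKM against 3.76 ± 0.446 FPKM in the controls (SD, n = 3 each). limma estimated a log2 fold change of -0.10 (standard error 0.12, 95% interval -0.38 to 0.18, adjusted p = 0.811 in limma), with p = 0.7 in the exact two-sided permutation test. It was -0.21 without agomir library 1 and -0.015 without agomir library 2, and -0.19, -0.050 and -0.061 without agomir NC libraries 1, 2 and 3, so the size of the difference depended on single libraries.

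Of 10 other genes of the GDNF family and its receptors, 5 were tested in limma, with none past the adjusted threshold and a median log2 fold change of 0.15. At an unadjusted p under 0.05, 1 was higher and 0 lower, beside 6.63% and 4.31% of all genes tested. The gene that was higher was NCAM1, an adhesion molecule that can act as a GDNF receptor, at 4.39 ± 0.365 FPKM in the agomir group and 3.60 ± 0.443 FPKM in the agomir NC group (SD, n = 3 each), with no overlap and a log2 fold change of 0.26 (adjusted p = 0.425 in limma), or 0.16 without agomir NC library 2. NCAM1 was the 1 gene of the 5 tested whose groups did not overlap, beside 17.2% of all genes tested. SDC3, a heparan sulfate proteoglycan that binds GDNF, was the most abundant of the list at a mean of 7.62 FPKM. RET, the kinase of the family, was at 0.200 ± 0.0417 FPKM against 0.153 ± 0.0311 FPKM, and GFRA1, the co-receptor that binds GDNF, at 0.0451 ± 0.0178 FPKM against 0.0349 ± 0.0253 FPKM in the controls (SD, n = 3 each). Both were low and overlapped between the groups, and GFRA2 was listed at 0 in every library. GFRA3 was at 0.792 ± 0.0492 FPKM against 0.675 ± 0.207 FPKM, GFRA4 at 3.19 ± 0.344 FPKM against 3.28 ± 0.109 FPKM and the ligand ARTN at 1.64 ± 0.134 FPKM against 1.203 ± 0.398 FPKM in the controls (SD, n = 3 each), all with overlapping groups.

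The rest of the neurotrophin pathway was read from lists of proteases, signalling proteins, transcriptional regulators and induced genes. Together with the receptor and GDNF family lists these held 141 genes, of which 140 had a row in the deposited list (BEX1 was not matched by symbol) and 110 were tested. In limma 12 of the 110 (10.9%) were higher and 5 (4.55%) were lower at an unadjusted p under 0.05, beside 6.63% and 4.31% of all genes tested, and 0 passed after adjustment, with a lowest adjusted p of 0.225. Their median log2 fold change was 0.029, and groups did not overlap in 25 of them (22.7%), beside 17.2% of all genes tested. The split of 12 higher and 5 lower was 7 and 6 with median-ratio scaling of the libraries, where the split over all genes tested was 657 higher and 706 lower in place of 824 and 535. It was 5 and 5 without agomir library 1, 6 and 4 without agomir library 3, 8 and 3 without agomir NC library 2, and 7 and 6 without agomir NC library 3. With both median-ratio scaling and quantile normalization, PLAT, MEF2D, NR3C1 and SPRY2 were no longer under an unadjusted p of 0.05 in limma, nor were RIPK2 with the former and SOS2 and MAGED1 with the latter. The surplus of higher genes in the pathway was thus lost or nearly lost with median-ratio scaling and without agomir library 1 or agomir NC library 3. With quantile normalization the split was 8 and 4, where 696 genes were higher and 629 lower over all genes tested. Without agomir library 2 it was also 8 and 4.

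**Figure D2:**
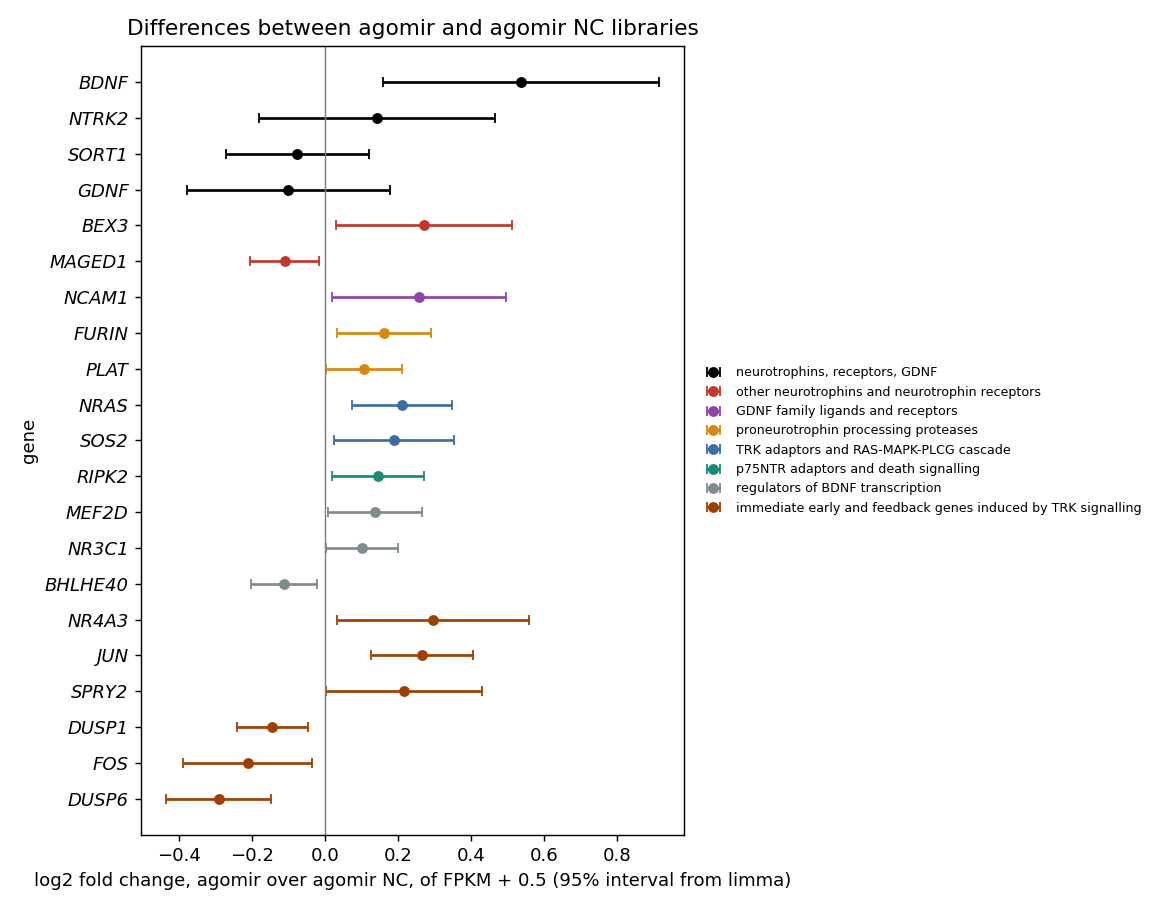
Log2 fold change of FPKM + 0.5, agomir over agomir NC (horizontal axis), for the 4 tested members and pathway genes with an unadjusted limma p under 0.05, with bars for the 95% interval from limma and colours for the gene list. BDNF has the largest estimate at 0.54 with the widest interval, and DUSP6 the lowest at -0.29.

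Among 11 proteases that process neurotrophin precursors and their regulators, 6 were tested, with a median log2 fold change of 0.068. At an unadjusted p under 0.05, 2 were higher and 0 lower, beside 6.63% and 4.31% of all genes tested. FURIN, which cuts the precursors inside the cell, was at 19.4 ± 0.519 FPKM in the agomir group and 17.3 ± 0.883 FPKM in the agomir NC group (SD, n = 3 each), for a log2 fold change of 0.16 (adjusted p = 0.376 in limma). PLAT, the tissue plasminogen activator that acts outside the cell, was at 35.5 ± 0.724 FPKM against 32.9 ± 0.853 FPKM in the controls (SD, n = 3 each), for a log2 fold change of 0.11 (adjusted p = 0.442 in limma). The groups did not overlap in either gene, that is, in 2 of the 6 tested, beside 17.2% of all genes tested.

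Of 37 TRK adaptors and members of the RAS-MAPK and phospholipase C cascades, 34 were tested, with a median log2 fold change of 0.029. At an unadjusted p under 0.05, 2 were higher and 0 lower, beside 6.63% and 4.31% of all genes tested. NRAS, a RAS GTPase, was at 25.9, 27.7 and 24.3 FPKM in agomir libraries 1, 2 and 3 and at 22.6, 21.3 and 23.1 FPKM in agomir NC libraries 1, 2 and 3. All 3 agomir values were above all controls, for a log2 fold change of 0.21 with a standard error of 0.061 (adjusted p = 0.310 in limma). SOS2, an exchange factor that loads RAS with GTP, was at 5.99 ± 0.260 FPKM against 5.19 ± 0.0661 FPKM in the controls (SD, n = 3 each), also with no overlap, a log2 fold change of 0.19 (adjusted p = 0.403 in limma). RAP1B, a RAS-related GTPase, was the most abundant gene of the list at a mean of 90.5 FPKM, and its groups overlapped. Counting NRAS and SOS2, groups did not overlap in 4 of the 34 genes tested, beside 17.2% of all genes tested.

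The signalling partners of NGFR were a list of 22 genes, of which 21 had a row and 18 were tested. Their median log2 fold change was 0.060. At an unadjusted p under 0.05, 1 was higher and 0 lower, beside 6.63% and 4.31% of all genes tested. RIPK2, a kinase adaptor of NGFR, was at 39.9 ± 1.22 FPKM in the agomir group and 36.0 ± 2.29 FPKM in the agomir NC group (SD, n = 3 each), with no overlap and a log2 fold change of 0.15 (adjusted p = 0.401 in limma), or 0.094 without agomir NC library 3. RHOA, the GTPase through which NGFR acts on the cytoskeleton, was the most abundant at a mean of 243.7 FPKM, with overlapping groups. Counting RIPK2, groups did not overlap in 5 of the 18 genes tested, beside 17.2% of all genes tested.

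Regulators of BDNF transcription were a list of 27 genes, of which 22 were tested, with a median log2 fold change of 0.062. At an unadjusted p under 0.05, 2 were higher and 1 lower, beside 6.63% and 4.31% of all genes tested. The 2 higher genes, MEF2D and NR3C1, were not under that p with either other scaling. MEF2D, an activity-dependent transcription factor, was at 13.6 ± 0.372 FPKM in the agomir group and 12.3 ± 0.330 FPKM in the agomir NC group (SD, n = 3 each), for a log2 fold change of 0.14 (adjusted p = 0.432 in limma). NR3C1, the glucocorticoid receptor, was at 37.2 ± 0.518 FPKM against 34.6 ± 0.764 FPKM in the controls (SD, n = 3 each), for a log2 fold change of 0.10 (adjusted p = 0.447 in limma). BHLHE40, a transcriptional repressor and the most abundant gene of the list, was at 86.2 ± 0.708 FPKM against 93.2 ± 2.84 FPKM in the controls (SD, n = 3 each), for a log2 fold change of -0.11 (adjusted p = 0.381 in limma). The groups of these 3 genes did not overlap, and none of the 3 passed the adjusted threshold. Over the list, groups did not overlap in 5 of the 22 genes tested, beside 17.2% of all genes tested.

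Immediate early genes and feedback inhibitors that TRK signalling can induce were a list of 23 genes, of which 21 were tested. At an unadjusted p under 0.05, 3 were higher and 3 lower, beside 6.63% and 4.31% of all genes tested. The median log2 fold change of the list was -0.0074, and with quantile normalization 0.0027, so the list as a whole had no stable sign. DUSP6, a phosphatase that switches off ERK kinases, was at 16.3, 16.5 and 14.4 FPKM in agomir libraries 1, 2 and 3 and at 18.9, 19.3 and 19.8 FPKM in agomir NC libraries 1, 2 and 3. Every agomir value was under every control, and the log2 fold change of -0.29 had a standard error of 0.064 and, at 0.225 in limma, the lowest adjusted p of all 110 pathway genes tested. DUSP1, a related phosphatase, was at 48.0 ± 0.898 FPKM against 53.2 ± 1.49 FPKM in the controls (SD, n = 3 each), for a log2 fold change of -0.14 (adjusted p = 0.321 in limma), and FOS, a subunit of the AP-1 transcription factor, was at 6.85 ± 0.544 FPKM against 8.01 ± 0.422 FPKM in the controls (SD, n = 3 each), for a log2 fold change of -0.21 (adjusted p = 0.393 in limma).

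JUN, the partner of FOS in AP-1, lay on the other side, at 19.1, 20.04 and 18.4 FPKM in agomir libraries 1, 2 and 3 and at 16.8, 15.0 and 15.9 FPKM in agomir NC libraries 1, 2 and 3. Its log2 fold change of 0.27 had a standard error of 0.062 (adjusted p = 0.248 in limma), with every agomir value above every control. NR4A3, an orphan nuclear receptor, was at 2.42 ± 0.234 FPKM in the agomir group and 1.88 ± 0.232 FPKM in the agomir NC group (SD, n = 3 each), for a log2 fold change of 0.30 (adjusted p = 0.407 in limma). SPRY2, an inhibitor of the RAS-MAPK cascade, was at 6.14 ± 0.352 FPKM against 5.23 ± 0.627 FPKM in the controls (SD, n = 3 each), for a log2 fold change of 0.22 (adjusted p = 0.449 in limma), or 0.14 without agomir NC library 2. The groups did not overlap in any of these 6 genes, which were named for their p. Over the list, groups did not overlap in 7 of the 21 genes tested, beside 17.2% of all genes tested. The directions were mixed within both kinds of gene, since FOS was lower and JUN higher, and DUSP6 and DUSP1 were lower and SPRY2 higher. JUNB, the most abundant gene of the list at a mean of 179.9 FPKM, overlapped between the groups.

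The profile of BDNF over the 6 libraries was set against those of the 11251 genes tested that have a symbol, by the Pearson correlation of log2(FPKM + 0.5). Among the 5 genes most like it were P4HA2 (r = 0.995), FAM120A (r = 0.995), EPC1 (r = 0.994) and DOK6 (r = 0.994), and 75 genes had an r of at least 0.95. The differences of these 4 genes between the groups were small beside that of BDNF, with log2 fold changes between 0.052 and 0.13. The collagen prolyl hydroxylase gene P4HA2 averaged 443 FPKM in the agomir group and 427 FPKM in the agomir NC group. The adaptor gene DOK6 had a mean of 1.94 FPKM against 1.72 FPKM. None of these 4 was under an unadjusted p of 0.05 in limma. Of the members, NTRK2 had an r of 0.83 with BDNF and ranked 640, while SORT1 was at -0.33 and GDNF at -0.72. With 6 libraries that fall into the 2 groups compared, these values of r describe the profiles only.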

How the data were processed

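RNA of 3 agomir and 3 agomir NC libraries was sequenced, and the values deposited were FPKM for each gene in each library. The submitters' processing notes name fastp, HISAT2, StringTie and the ARS-UCD1.2 genome, with no versions. FPKM is normalized for length and mapped fragments, so a shift in a few abundant genes moves all others. Whole reads could not be recovered, since at most 16 low genes shared a log2 ratio bin of 0.002 between any 2 libraries.

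Genes averaging 0.5 FPKM or more were compared on log2(FPKM + 0.5) in limma 3.58.1 (R 4.3.3) by a two-sided moderated test allowing a trend in variance, with p-values adjusted by Benjamini-Hochberg over 12422 genes, and single genes by an exact permutation test over 20 labelings. The model was tested on simulated data. The p-values measure the spread between samples of unstated origin, which may be technical.

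The members and lists were chosen with earlier results of these data known. Named were all members, each list's most abundant gene and its genes under an unadjusted p of 0.05, and the 5 genes most correlated with BDNF. Any further gene was picked with its values in view. Some genes that this rule or a list holds are not reported here. The alternatives changed the pseudocount (0.1 or 1), the filter (none, or averages of 1 FPKM or more), the scaling (by median ratios or by quantiles) or the model (array weights, a replicate block, or no trend in variance), or left out each library.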

Additional observations from a re-analysis of the deposited data

How the results depend on the processing

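The number of genes under an adjusted p of 0.05 in limma was 1, and it was 0 with no filter, 0 with no variance trend and 0 with the replicate block, where 1604, 1249 and 1260 genes were under an unadjusted p of 0.05. Leaving out single libraries, it ranged from 0, without agomir library 1 or agomir NC library 2 (1220 and 1189 genes at an unadjusted p under 0.05), to 2, without agomir NC library 3. The 1 member at an unadjusted p under 0.05, BDNF, was not tested with a mean of at least 1 FPKM, which left 0 such members among 3 tested. Over its 14 other settings the log2 fold change of BDNF stayed between 0.39 and 0.78, with unadjusted limma p-values between 0.00216 and 0.0491 and adjusted p-values between 0.322 and 0.608. The 12 higher pathway genes were 7 with median-ratio scaling and 7 with the replicate block, and between 5 and 9 with each library left out. The 5 lower ones were 3 without the variance trend, and between 3 and 6 with each library left out, 3 without agomir NC library 2. The cause was not tested. Same-numbered libraries did not deviate together from their group means (correlations of -0.051, 0.053 and 0.039), and no source says that a number marks a calf, so the replicate block was not taken as a pairing. It took NCAM1, PLAT, SOS2, MEF2D and NR3C1 above an unadjusted p of 0.05, with unadjusted limma p-values between 0.0523 and 0.0878, while BDNF and the other 12 pathway genes named for it stayed below. DUSP6, DUSP1, JUN and NRAS were under an unadjusted p of 0.05 in all 15 settings, FURIN in 13, FOS and BHLHE40 in 12, NR4A3 in 11, BEX3, MAGED1, NCAM1, RIPK2 and SOS2 in 10, MEF2D in 8, SPRY2 in 6, and PLAT and NR3C1 in 5, and none was under an adjusted p of 0.05 in any. Besides BDNF, whose 14 other settings are given above, the direction of the 25 other single genes recomputed was the same in all 375 values. No scaling moved the median of all genes by 0.1 or more on the log2 scale. The unknown depth limits the genes under 0.5 FPKM most.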

Other observations

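Across the members and the 7 pathway lists, cell type markers left aside, 33 genes had a mean under 0.5 FPKM and had no limma test, and 8 of them were listed at 0 in every library. The groups did not overlap in 2 of the 25 with values above 0, beside 6.8% of all such genes under that mean, and these 2 are named after their values were seen. MMP9, a protease that can cut the BDNF precursor outside the cell, was at 0.285, 0.109 and 0.285 FPKM in agomir libraries 1, 2 and 3 and at 0.334, 0.435 and 0.432 FPKM in agomir NC libraries 1, 2 and 3. ARNT2, a transcription factor that pairs with NPAS4, was at 0.465, 0.233 and 0.279 FPKM in agomir libraries 1, 2 and 3 and at 0.580, 0.466 and 0.490 FPKM in agomir NC libraries 1, 2 and 3. Both were lower in every agomir library, ARNT2 by a narrow margin in agomir library 1, and both gave p = 0.1 in the exact two-sided permutation test, the smallest it can give.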
